A study of Homo sapiens with 6 samples.

Results

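The antisense RNA genes were the 289 rows, of 7758 in the deposited table, whose gene biotype was antisense, that is, transcripts read from the strand opposite to another gene. Their sense partners were the 154 listed protein-coding genes that overlapped one of them by at least 1 base on the other strand. The table compared the human retinal pigment epithelium (RPE) line ARPE-19 carrying an shRNA against METTL3 (sh-METTL3) with cells carrying a control shRNA (sh-Control), with 3 RNA-seq libraries in each group. The shRNAs were delivered by lentivirus and stable strains were selected with puromycin, and all 6 libraries, controls included, came from cells given lipopolysaccharide (LPS) at 1 µg/ml for 24 h. No label states that replicate libraries are separate cultures, so p-values measured the spread between these libraries only, and the number of clones behind a strain was not given in the sources used here.

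METTL3 is the catalytic subunit of the complex that writes N6-methyladenosine (m6A) on RNA. Antisense RNAs can overlap the start of their partner (head to head), overlap its end (tail to tail), lie inside it or contain it, and single members are known to silence, stabilise or mask the gene across from them, while many have no known role. Because sense and antisense transcripts share template sequence but not strand, only strand-specific counting can separate them. The sources used here did not state whether counting used strand, so a read on exons that overlap cannot be assigned to one gene with certainty. The same limit holds for a read of unspliced partner RNA that falls on an antisense exon. In bulk RNA, fewer cells of a type and less RNA per cell cannot be told apart.

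The rows were not a sample of all genes. The authors' table held genes past their own significance threshold, 33.8% of the 22977 genes they tested, so nearly every listed gene had to be called here, and the 289 were 5.18% of the 5583 genes annotated as antisense in GENCODE v29, where the 6740 listed coding genes were 33.8% of 19951. Libraries held 10898434 to 17750052 reads on listed genes, of which 32916 to 42792 fell on antisense genes. METTL3, the targeted gene, had scaled counts (reads divided by a library size factor) of 1154, 1108 and 1091 in the controls and 965.6, 1001 and 764.8 in sh-METTL3. This was a reduction of 18.5%, and its limma adjusted p was 0.032, which rose to between 0.0573 and 0.261 when edgeR on recovered reads, a fit without intensity trend or removal of any single control library was used instead. Cell type markers moved with the groups. Of 18 RPE marker symbols 9 were listed (6 higher, 3 lower), among them the keratin genes KRT8 and KRT18. The summed level of the 9 was 18940 to 20220 in controls and 30440 to 33750 in sh-METTL3. Of the 6 mesenchymal markers chosen, 4 were listed and all fell (sum 11360 to 13230 against 4730 to 5383). The vimentin gene VIM, which was not among those 6, was higher (log2 fold change 0.96). The part of these markers in the results below was not tested. Defining RPE markers such as RPE65 and RLBP1 were not among the listed genes and have no value here. Of the immune markers only CD14 was listed (24.7 to 25.9 in controls, 0 to 2.80 in sh-METTL3), and no endothelial marker was.

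Of the 289 antisense genes, 225 were higher and 61 lower in sh-METTL3, and 3 were not called, by limma on log2(scaled count + 1) with Benjamini-Hochberg adjustment over the 22977 tested genes. Across all listed genes, 97.9% were called, 46.6% higher and 51.3% lower. The share higher was therefore 77.9% among antisense genes and 42.8% among the listed protein-coding genes. In lincRNA genes, another long noncoding class, 243 of 308 were higher. Of processed transcripts 39 of 64 were higher, and of sense-overlapping genes 6 of 12. The median log2 fold change of the antisense genes was 1.03 (quartiles 0.52 and 1.53) and that of coding genes was -0.25. A change of at least a doubling or halving was seen in 191 antisense genes (66.1%). The share was 30.5% in all listed genes and 25.1% in coding genes. Antisense genes also had a lower level, with a median mean scaled count of 49.3 against 738 in coding genes. The part of level in the gap was not tested. Under a mean scaled count of 20, the share was 100% of antisense and 98.8% of coding genes. From 20 to 50 it was 88.0% against 88.6%. From 50 to 100 it was lower in antisense genes, 43.9% against 70.6%. It was higher in antisense genes from 100 to 500 (21 of 60 genes, against 26.6%) and at 500 and more (13.3% against 9.27%). The groups of 3 did not overlap in 284 of 289 antisense genes, where the figure over all listed genes was 98.5%. No set test was made, and the counts are those of genes already chosen by the authors on these libraries.

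The share higher was set side by side in the same bins. From a mean of 100 to 500, 50 of 60 antisense genes (83.3%) were higher, compared with 749 of 1670 coding genes (44.9%), and at 500 and more 8 of 15 against 1542 of 4055 (38.0%). At means under 20, 55 of 73 antisense and 198 of 346 coding genes (57.2%) were higher. Antisense genes took 0.227%, 0.228% and 0.240% of listed reads in the controls and 0.285%, 0.302% and 0.300% in sh-METTL3. These shares sum genes that were listed for a difference between these same libraries. Their separation by group largely follows from that choice and is no independent support. The direction was similar in genes with a listed coding partner (113 higher, 34 lower of 149), in those with an annotated but unlisted partner (75 and 16 of 91) and in those with none annotated (37 and 11 of 49).

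**Figure D1:**
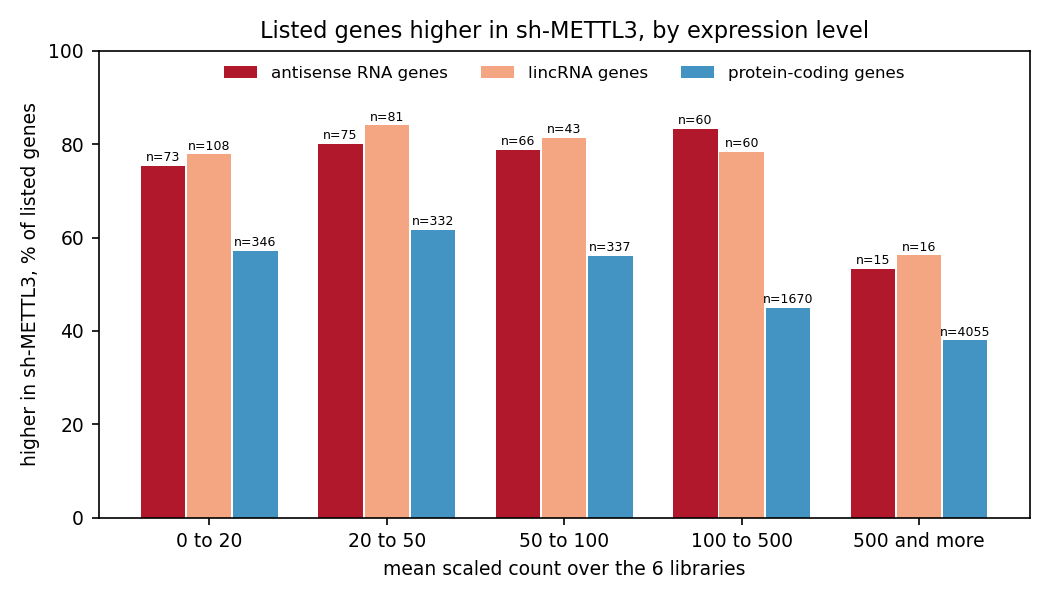
Percentage of listed genes higher in sh-METTL3 (vertical axis, called by limma at adjusted p under 0.05) in 5 bins of mean scaled count (horizontal axis), for antisense, lincRNA and protein-coding genes, with the number of listed genes above each bar. Antisense bars lie above the coding bar in each bin, 83.3% against 44.9% from 100 to 500.

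For 46 of the pairs RefSeq (GRCh38.p14) gave a promoter window, 250 bases before to 50 after the start, for both genes. In 10 of these the windows overlapped, and by the sign of the log2 fold change 6 of those 10 pairs were opposite and 4 alike, with both genes called in 5 and 4 of them. The uncalled gene was INTS6 (adjusted p = 0.0585 by limma). The bases between the 2 RefSeq start sites are printed for the 6 pairs whose starts lay within 250 bases of each other, because they show how little sequence separated genes that moved apart (DICER1, KMT2E, BAG2) and genes that moved together (ID2, LENG8, TM4SF1). Each is read on the strand of the antisense gene, 5′ to 3′, and capitals mark the GC box GGGCGG on either strand. They also mark the promoter element known as the CCAAT box by those same 5 letters, again on both strands. The other motifs searched for and put in capitals were the TATA box, spelled TATAAA, on both strands, and the motif of ETS-family factors, spelled CCGGAAG, on both strands.
DICER1-AS1 to DICER1: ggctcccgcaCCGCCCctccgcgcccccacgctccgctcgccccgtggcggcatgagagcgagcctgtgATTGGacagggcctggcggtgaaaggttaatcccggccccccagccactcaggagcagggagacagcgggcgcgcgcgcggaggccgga
KMT2E-AS1 to KMT2E: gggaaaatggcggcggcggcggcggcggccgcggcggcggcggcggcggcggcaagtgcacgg
ZNF451-AS1 to BAG2: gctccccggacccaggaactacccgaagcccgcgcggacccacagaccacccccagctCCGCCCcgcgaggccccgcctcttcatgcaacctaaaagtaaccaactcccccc
ID2-AS1 to ID2: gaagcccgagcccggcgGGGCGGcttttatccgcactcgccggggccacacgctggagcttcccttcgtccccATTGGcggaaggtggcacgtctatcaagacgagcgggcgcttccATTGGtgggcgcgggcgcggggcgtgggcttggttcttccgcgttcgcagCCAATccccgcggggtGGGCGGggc
LENG8-AS1 to LENG8: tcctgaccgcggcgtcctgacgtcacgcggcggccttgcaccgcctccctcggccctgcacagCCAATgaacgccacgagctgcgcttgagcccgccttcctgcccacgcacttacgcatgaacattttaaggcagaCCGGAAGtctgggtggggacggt
TM4SF1-AS1 to TM4SF1: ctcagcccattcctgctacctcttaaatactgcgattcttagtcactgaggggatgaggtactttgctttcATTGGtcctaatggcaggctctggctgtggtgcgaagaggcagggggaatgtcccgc

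In that order the stretches lie at chr14:95157530-95157687 (plus strand), chr7:105014142-105014204, chr6:57172214-57172325, chr2:8681864-8682055 and chr19:54449039-54449198 (all minus) and chr3:149377650-149377777 (plus). The DICER1 stretch held 1 GC box and 1 CCAAT box, that of ID2 2 and 3, that of LENG8 1 CCAAT box and 1 ETS motif, that of TM4SF1 1 CCAAT box and that of BAG2 1 GC box. The 63 bases between KMT2E-AS1 and KMT2E held none of the 4 motifs and were 85.7% G or C. No motif overlapped another. Over whole 300-base windows, the GC box was found in 60.5% of 86 antisense genes and 66.1% of 115 partners with a window, against 45.0% of 35116 RefSeq windows, and the TATA box in 4.65%, 10.4% and 11.5%. The CCAAT box was in 34.9%, 29.6% and 34.6% and the ETS motif in 5.81%, 9.57% and 10.3%, in the same order. The AP-1 motif, spelled TGACTCA, and the nuclear receptor site, spelled AGGTCA, were searched for in the windows only, on both strands, and were in 8.14%, 3.48% and 4.95% and in 9.3%, 9.57% and 13.8%. The windows also differed in base composition, with a median of 64.5% G or C in the antisense genes and 66.7% in the partners against 58.7% in all windows, and medians of 22, 25 and 14 CG pairs, and the part of composition in the GC box shares was not tested. A match is a description of letters only. The GENCODE models of these 6 pairs overlap at their starts, whereas the RefSeq starts point away from each other.

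DICER1-AS1 had scaled counts of 68.6, 95.1 and 101 in the controls and 143, 131 and 144 in sh-METTL3, whereas DICER1, the nuclease that cuts microRNA precursors, had 2436, 2533 and 2600 against 2027, 1821 and 1906. Neither gene's groups overlapped, as in 98.5% of all listed genes. The log2 ratio of antisense to sense changed by 1.07 ± 0.18 (SE, limma adjusted p = 0.000119 over 659 opposite-strand pairs). KMT2E-AS1 had 34.3, 23.1 and 24.3 against 75.6, 81.2 and 57.1, and KMT2E, a SET-domain chromatin protein, 2272, 2266 and 2398 against 1923, 1978 and 2161. KMT2E was lower by 12.6%, and its call was lost in 8 settings, among them both edgeR fits and the removal of any library but sh-METTL3 replicate 3 (adjusted p 0.0604 to 0.865). ID2-AS1 and ID2, an inhibitor of basic helix-loop-helix factors, both rose, from 8.78, 11.5 and 14.02 to 31.7, 51.6 and 33.6 for the antisense gene and from 183, 171 and 180 to 341, 294 and 435 for ID2. TM4SF1-AS1 and TM4SF1, a tetraspanin-like surface protein, both fell, with log2 fold changes of -1.02 and -1.48, and the ratio did not pass its test (0.46 ± 0.26, limma adjusted p = 0.143). The call of TM4SF1-AS1 ended without sh-Control replicate 3 (adjusted p = 0.0707). LENG8-AS1 rose from 42.3, 43.2 and 40.2 to 86.8, 122 and 97.4, and LENG8 from 13750, 13250 and 12080 to 16140, 16630 and 15340. ZNF451-AS1 rose from 18.4, 10.6 and 11.2 to 24.3, 37.4 and 28.0, while BAG2, a co-chaperone of HSP70, went from 709, 643 and 657 to 526, 530 and 494. ZNF451-AS1 lost its call without sh-Control replicate 2 or 3 or sh-METTL3 replicate 2 (adjusted p 0.0691, 0.0578 and 0.0751). Near these, WNT5A-AS1 fell from 131, 127 and 125 to 56.9, 72.2 and 61.6 beside WNT5A, a noncanonical Wnt ligand, which fell from 1827, 2130 and 2131 to 597, 759 and 722.

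The 160 pairs joined 149 antisense genes to 154 partners, and 118 pairs (73.8%) had 1 direction in both genes, where direction in all counts of pairs is the sign of the log2 fold change, called or not. By sign both genes were higher in 83 pairs and lower in 35, and the antisense gene was higher beside a lower partner in 41. In the 156 pairs with both genes called by limma these counts were 83, 34 and 38. The reverse occurred once, in LUCAT1 and ADGRV1, an adhesion G protein-coupled receptor. LUCAT1 had 499, 386 and 395 in the controls against 305, 304 and 339, and ADGRV1 95.7, 69.2 and 58.0 against 143, 131 and 128. The call of LUCAT1 ended with RLE factors and without sh-Control replicate 1 or sh-METTL3 replicate 1 or 2 (adjusted p 0.0722, 0.0714, 0.0582 and 0.0581). Of the partners, 81 were higher and 71 lower, and 2 were not called, while edgeR with RLE factors called 81 higher and 48 lower. The antisense gene was higher in 83 of the 84 pairs with a higher partner and in 41 of the 76 with a lower one. Where the partner had fallen by less than a halving the antisense gene was higher in 38 of 53 pairs (median log2 fold change 0.79), and where it had fallen further it was lower in 20 of 23 (median -1.59). Over the pairs Pearson's r of the log2 fold changes was 0.70 and Spearman's rho 0.64 (n = 160 pairs, which share libraries and in part reads), given as a description. In 395 pairs of 2 coding genes on opposite strands, 254 (64.3%) had 1 direction and r was 0.35. In the 74 antisense pairs with means of at least 50 in both genes, 50 (67.6%) had 1 direction, with r 0.47 and rho 0.44.

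**Figure D2:**
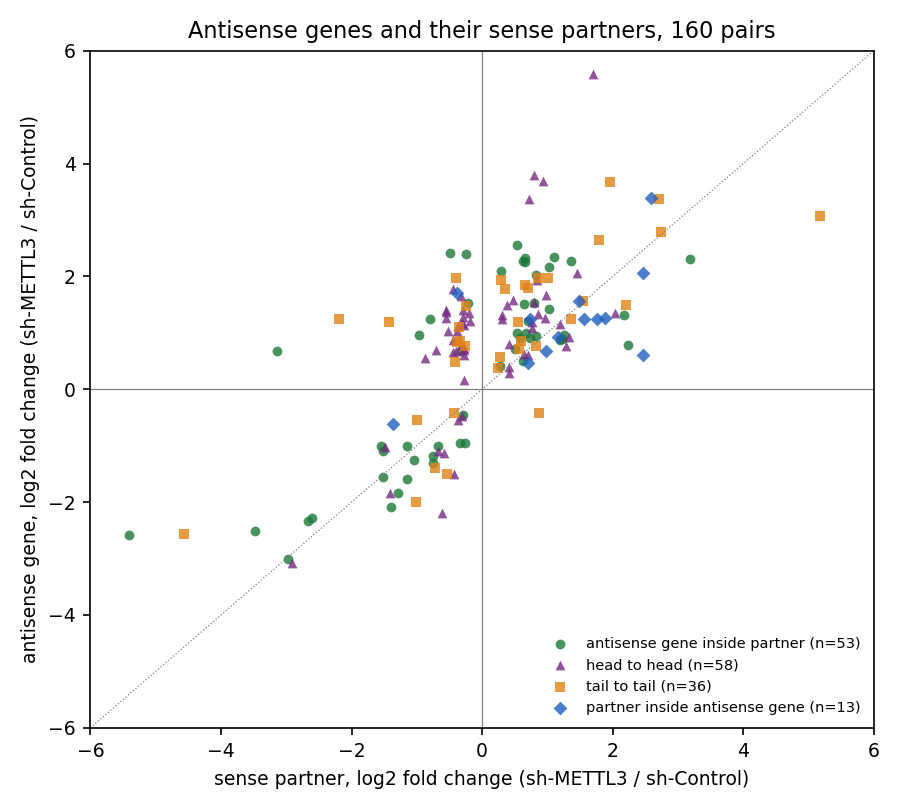
Log2 fold change (sh-METTL3 over sh-Control) of each antisense gene (vertical axis) against that of its sense partner (horizontal axis) for 160 pairs, with symbols by arrangement and a dotted line where both changes are equal. The upper left field holds the 41 pairs with, by sign, a higher antisense gene and a lower partner, and the lower right holds 1.

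Pairs differed by arrangement, a description with no test. One direction was shared in 46 of 53 pairs with the antisense gene inside its partner, 12 of 13 with the partner inside the antisense gene, 26 of 36 tail to tail and 34 of 58 head to head. In pairs of 2 coding genes it was shared in 39 of 52 with 1 gene inside the other, 110 of 183 tail to tail and 105 of 160 head to head. Of the 43 pairs whose annotated starts lay within 1000 bases, 24 moved together, against 94 of the 117 further apart. In the 110 pairs with overlapping exons 79 moved together (71.8%), and in the 50 that shared no exonic base 39 did (78.0%). Those 50 can still share reads of unspliced RNA, so the split does not set apart pairs free of shared reads. The ratio of antisense to sense was called by limma in 80 of 160 pairs, beside 55.8% of all 659 opposite-strand pairs of any biotype. It rose in 70 of these and fell in 10. The ratio was called in 41 of the 41 pairs with a higher antisense gene and a lower partner, where a ratio sums both changes. It was likewise called in 141 of 141 opposite pairs of 2 coding genes, so this share is not particular to antisense pairs. Partners in the 41 pairs fell by at least a halving in 3 pairs only.

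Opposite changes were ranked among pairs with means of at least 50 in both genes, and pairs of lower level can differ more. In the first pair AC105020.1 lies inside CSPG4, the NG2 proteoglycan, without exon overlap. CSPG4 had 2641, 2906 and 2614 scaled counts in the controls and 285, 264 and 390 in sh-METTL3 (log2 fold change -3.14 ± 0.13, limma adjusted p = 1.09e-07). AC105020.1 had 65.4, 81.7 and 86.9 against 83.03, 120 and 190, so its groups overlapped and it was not called (adjusted p = 0.0987 by limma, between 0.0159 and 0.367 in other settings). AL162458.1 was at 50.3, 40.4 and 57.0 against 122, 178 and 220 while PCIF1, the cap-adjacent adenosine methyltransferase (m6Am), fell from 867, 992 and 1014 to 778, 709 and 629. GABPB1-AS1 shared 424 exonic bases with GABPB1, a subunit of an ETS-family factor, and rose from 368, 300 and 363 to 805, 897 and 1050. GABPB1 fell from 366, 328 and 353 to 240, 246 and 228, and the difference of the log2 changes was 1.96 ± 0.14 (limma adjusted p = 3.64e-08). FRMD6-AS1 over FRMD6, a FERM-domain protein of Hippo signalling, and H1FX-AS1 over the linker histone gene H1FX showed log2 fold changes of 0.97 against -0.97 and of 1.37 against -0.56. The call of FRMD6-AS1 ended without sh-METTL3 replicate 2 (adjusted p = 0.0514).

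Among pairs with means of at least 50 in both genes, the 5 with the largest sum of the 2 log2 changes in 1 direction were taken, a rank that 1 gene of a pair can set. In the first, AC090673.1 and HMGA2, an architectural chromatin protein, fell alike. AC090673.1 was at 121, 107 and 143 in controls against 38.3, 36.1 and 49.3, and HMGA2 at 3712, 3585 and 3586 against 1162, 1094 and 1605. Their ratio moved by -0.05 ± 0.20 (limma adjusted p = 0.868). FLG-AS1 runs across the epidermal cornified-envelope genes HRNR (hornerin) and FLG (filaggrin) and rose with both, from 266, 273 and 283 to 587, 602 and 791. FLG rose from 697, 735 and 755 to 2073, 2137 and 2245, and HRNR from 252, 252 and 278 to 836, 894 and 925. CKMT2, the sarcomeric mitochondrial creatine kinase, rose from 40.7, 45.2 and 45.8 to 270, 242 and 225, far more than CKMT2-AS1 (60.6, 65.3 and 70.1 to 96.1, 115 and 89.6), whose call ended without sh-Control replicate 1 or 2 or sh-METTL3 replicate 2 (adjusted p 0.0714, 0.058 and 0.0898). AC112907.3 fell from 136, 150 and 135 to 26.1, 32.2 and 31.4 beside EIF4A2, a translation initiation helicase, which went from 15790, 16250 and 17380 to 10830, 10820 and 10710. The antisense fall was the larger by a log2 difference of -1.59 ± 0.20 (limma adjusted p = 1.16e-05). GSEC and DCPS, AC245140.3 and FLNA, and NNT-AS1 and NNT changed by nearly equal factors, with log2 differences of 0.01, -0.02 and -0.02 (SE 0.12, 0.18 and 0.11). The calls of GSEC and DCPS were lost in 5 and 2 of 14 settings, for GSEC on leaving out any control library or sh-METTL3 replicate 1 (adjusted p 0.0517 to 0.101).

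**Figure D3:**
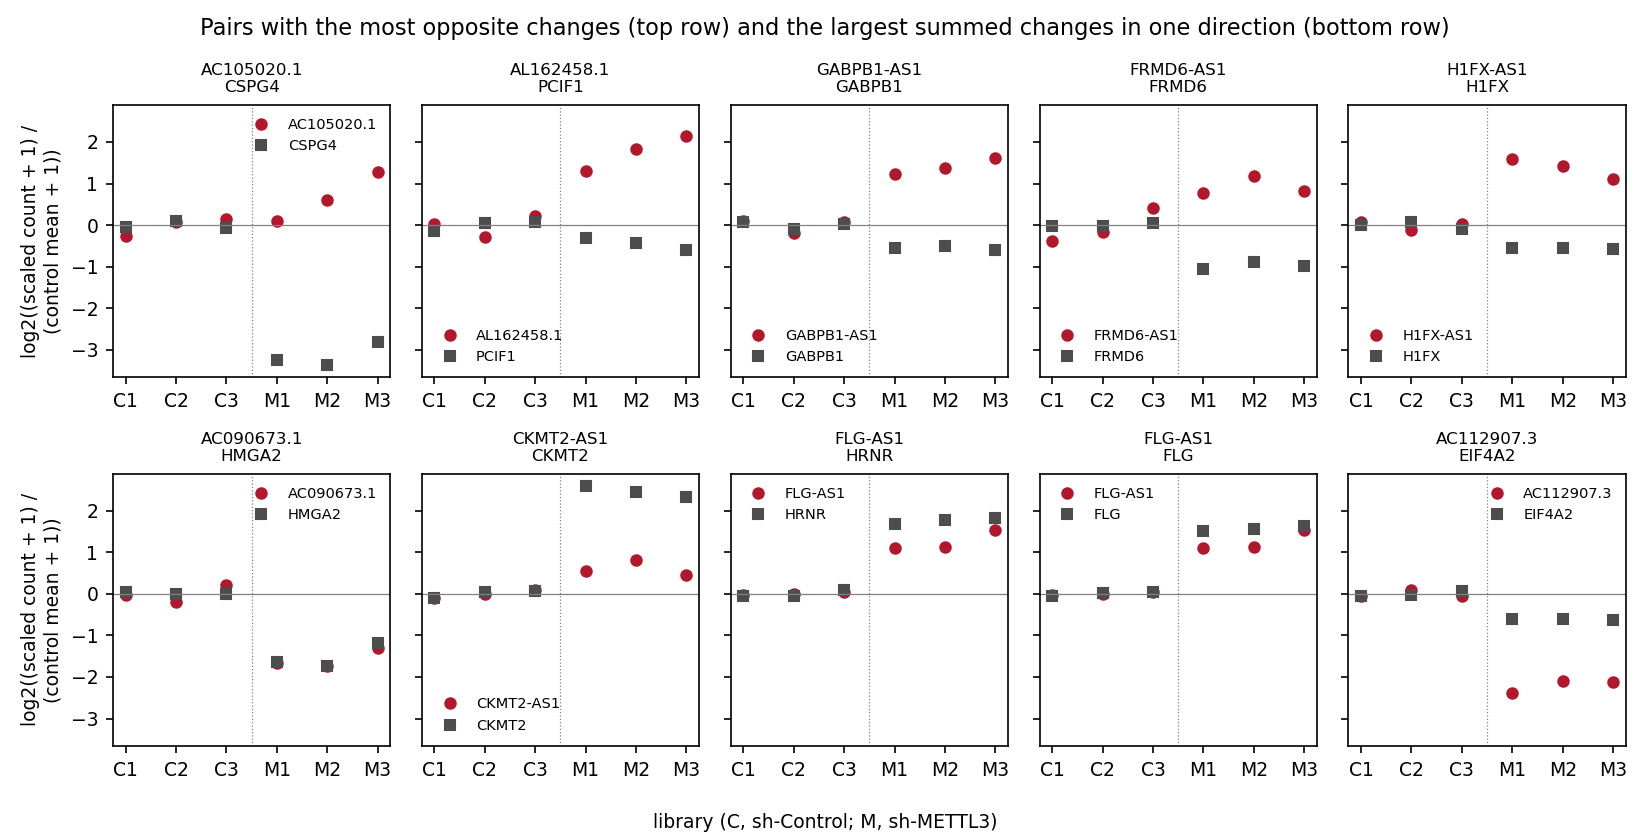
Log2 of scaled count + 1 over the control mean + 1 in each library (C1 to C3 sh-Control, M1 to M3 sh-METTL3) among pairs with means of at least 50 in both genes, for the 5 with the most opposite changes (top) and the 5 with the largest summed change in 1 direction (bottom), circles for the antisense gene and squares for the partner. In the top row the circles lie above and the squares below 0 in all sh-METTL3 libraries, and AC105020.1 in M1 lies close to 0.

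RUNDC3A-AS1 had the largest fitted rise among the antisense genes with a mean of at least 20 over the 6 libraries. All 6 genes named for their rise passed that minimum only through sh-METTL3, and 4 of the 6 named for their fall only through the controls, so their sizes rest on few reads in the other group. RUNDC3A-AS1 had 2.39, 14.4 and 0.935 scaled counts in the controls and 225, 276 and 177 in sh-METTL3 (log2 fold change 5.58 ± 0.62, limma adjusted p = 6.35e-05). Its control values came from 19 reads in all, and 2 of the 3 were at or under the floor of 3 reads per library, so the fold depends on the added 1. RUNDC3A, a RUN-domain protein known from neurons, was at 19.9, 26.9 and 14.02 against 70.9, 61.9 and 65.0, and the antisense gene rose further (ratio 3.89 ± 0.44). TMC3-AS1 rose from 8.78, 1.92 and 2.80 to 51.3, 36.1 and 63.8, AC022239.1, which overlaps the Src-family kinase gene BLK, from 13.6, 3.84 and 3.74 to 38.3, 38.7 and 68.3, and C9orf139, which runs across FUT7 and meets the lipid transporter gene ABCA2, from 7.98, 11.5 and 14.96 to 37.3, 58.0 and 56.0. None of these groups overlapped, but the genes were chosen for the largest rises, and 98.5% of all listed genes did not overlap either. AC079174.2, inside the gene of the endoplasmic reticulum protein CKAP4, rose from 13.6, 7.69 and 3.74 to 46.7, 40.0 and 44.8 while CKAP4 fell from 6922, 7275 and 7045 to 4926, 4937 and 5246. AC092675.1 was at 11.2, 13.5 and 10.3 against 56.0, 55.4 and 54.9. The call of the partner TMC3 (2.39, 4.80 and 0.935 against 35.5, 33.5 and 5.599) ended without sh-Control replicate 3 or sh-METTL3 replicate 1 or 2 (adjusted p 0.052, 0.0643 and 0.0572). It also ended in limma without intensity trend (adjusted p = 0.0578). The fall of LINC00632 was from 55.0, 58.6 and 62.6 to 5.598, 3.87 and 8.96 (log2 fold change -3.13 ± 0.32), and that of AC105105.1, inside the alpha-kinase gene ALPK2, from 55.8, 40.4 and 50.5 to 11.2, 12.9 and 4.48. ALPK2 fell with it, from 1902, 2148 and 2170 to 375, 406 and 226. AP001783.1, inside the adhesion gene KIRREL3, fell from 53.5, 80.7 and 73.8 to 18.7, 11.6 and 16.8, and LYPLAL1-DT from 67.8, 115 and 95.3 to 15.9, 30.9 and 23.5. AC090109.1, the smallest of the 6 falls, was at 30.3, 27.9 and 41.1 against 8.40, 24.5 and 2.24. It lost its call in 8 of 14 settings, among them the removal of any library but sh-METTL3 replicate 2 (adjusted p up to 0.138).

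**Figure D4:**
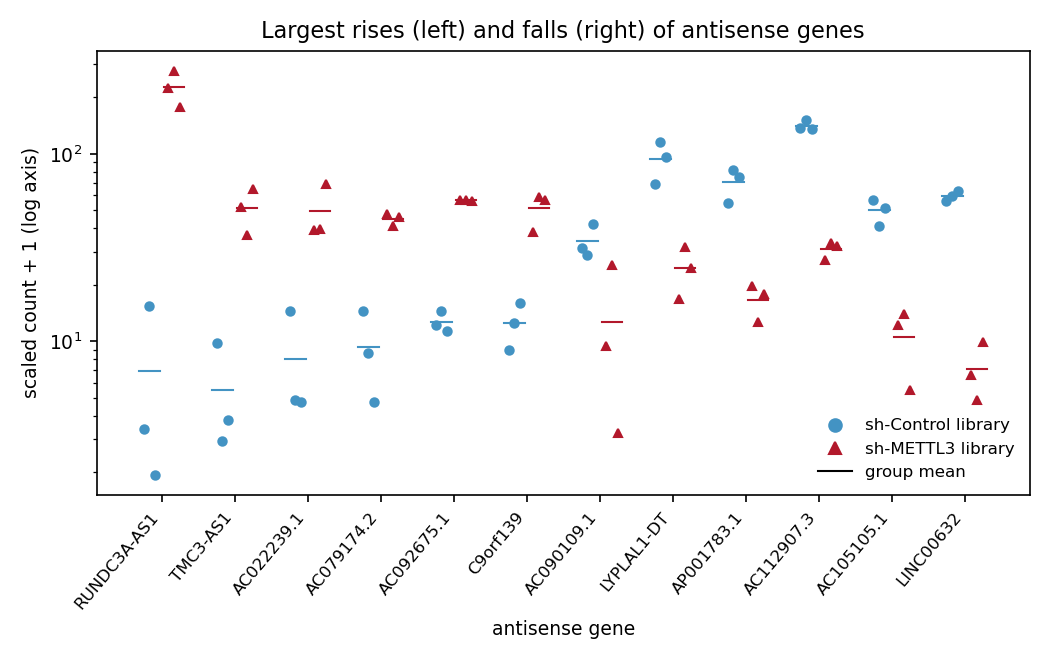
Scaled count + 1 on a log axis in each library for 12 antisense genes with a mean of at least 20, the 6 top risers at left and the 6 top fallers at right, with lines at the group means. Circles (sh-Control) and triangles (sh-METTL3) do not overlap in any of the 12 genes, which were chosen for the size of their change. The groups also did not overlap in 98.5% of all listed genes. RUNDC3A-AS1 lies highest in sh-METTL3.

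Of 61 antisense RNAs on a list with studied regulatory roles, 13 were listed, 10 higher and 3 lower, and their log2 fold changes had a median of 0.78, beside 77.9% higher and a median of 1.03 among all 289 antisense genes. ZFAS1, which hosts snoRNAs in its introns, fell from 1281, 1353 and 1199 to 953, 986 and 819. TGFB2-AS1 was the most abundant antisense gene per kilobase, at 5650 scaled counts per kb in controls and 3640 in sh-METTL3, and fell by 35.7%, from 2806, 3269 and 3373 to 2173, 2166 and 1738. KCNQ1OT1, the imprinted RNA that silences genes around KCNQ1, rose from 187, 157 and 192 to 359, 249 and 320. THUMPD3-AS1 doubled, from 231, 216 and 303 to 497, 478 and 553, while SETD5, across from it, was lower (log2 fold change -0.38). VIM-AS1 (33.5, 21.1 and 36.5 against 70.9, 99.2 and 54.9) rose with VIM, which encodes the intermediate filament vimentin and went from 44890, 46900 and 46010 to 85540, 83840 and 98930. TMEM161B-AS1 rose from 121, 117 and 124 to 219, 287 and 320, ZNF503-AS2 from 45.5, 41.3 and 31.8 to 105, 88.9 and 118, and THAP9-AS1 fell from 1110, 1223 and 1182 to 871, 807 and 588. DLGAP1-AS1 and DLGAP1-AS2, neighbours on 1 strand, rose with log2 fold changes of 1.04 and 1.23. FGD5-AS1 rose by 12.9% (2469, 2439 and 2544 against 2799, 2973 and 2641), while NR2C2, an orphan nuclear receptor, was lower (log2 fold change -0.28). The call of FGD5-AS1 was lost in 7 settings, among them the removal of any library but sh-METTL3 replicate 3 (adjusted p up to 0.185). CFLAR-AS1 and SBF2-AS1 were higher (0.78 and 0.76 on the log2 scale), but lost the call in 4 and 5 settings, all of them removals of 1 library (adjusted p up to 0.0845 and 0.133).

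Of 48 names on a fixed list of antisense RNAs of transcription factor genes 4 were listed. GATA2-AS1, TBX2-AS1 and ZEB1-AS1 were higher and MAFG-DT lower, beside 77.9% higher among all 289 antisense genes. That list was not complete and left out GABPB1-AS1, for example. GATA2-AS1 was at 0 in all controls and at 1.87, 2.58 and 8.96 in sh-METTL3, where a count of 0 allows up to 3 reads per library, or 2.39 to 2.88 scaled counts. Its call ended without sh-METTL3 replicate 3 (adjusted p = 0.0614). ZEB1-AS1 went from 105, 113 and 109 to 204, 222 and 121 and lost its call in 6 settings, 5 of them removals of 1 library (adjusted p up to 0.136), and MAFG-DT lost its call in 4 such removals (up to 0.0735). TBX2-AS1 rose from 37.5, 41.3 and 66.4 to 115, 115 and 99.7. Of 17 HOX cluster antisense RNAs none was listed. Among partners, the name pattern for matrix, protease and adhesion genes matched LAMA4, LAMA5 and MMP9 and missed others, such as CSPG4 and KIRREL3. LAMA4 and LAMA5 were higher and MMP9 was lower, at 156, 149 and 163 against 3.73, 5.16 and 8.96. SLC12A5-AS1, across from MMP9, was at 9.57, 23.1 and 9.35 against 1.87, 0 and 3.36. The sh-METTL3 values of SLC12A5-AS1 come from 5 reads in all, so the sizes of the 2 falls cannot be compared. The name pattern for developmental factors matched HMGA2 alone among the partners. It did not cover other transcriptional regulators, which went both ways. TFAP2A (log2 fold change -0.80), MSC (-1.36) and POU2F2 (-2.97) were lower, and ID2 (0.98), RFX2 (0.66) and SAP30 (1.19) were higher. These are examples chosen after their values were seen, so no shared direction can be read from them. Of 4 zinc finger genes ZNF529, ZNF710 and ZNF91 were higher (log2 fold changes 0.58, 0.55 and 0.64) and ZNFX1 was not called. The pattern for inflammatory genes matched IRF2BPL alone (0.31), which is not an interferon regulatory factor. It missed the cytokine LIF (-0.28) and the Toll-like receptor adaptor TIRAP (-0.53), both lower. Both lost the call with RLE factors (adjusted p 0.109 and 0.0779), and TIRAP also without sh-Control replicate 1 or sh-METTL3 replicate 1 or 2 (0.118, 0.0797 and 0.0569). No partner matched the cell cycle or m6A machinery lists.

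The antisense genes with the highest level per kilobase after TGFB2-AS1 were not one-directional. KRT7-AS, inside the gene of the simple-epithelium keratin KRT7, rose from 830, 750 and 982 to 1082, 1409 and 1125 (adjusted p = 0.00763 by limma, and 0.0531 without intensity trend), and KRT7 rose from 34440, 36590 and 36730 to 55680, 62460 and 49680. RGMB-AS1 fell from 1133, 1174 and 1224 to 559, 570 and 642, and RGMB, a co-receptor of bone morphogenetic proteins, fell from 2994, 3256 and 3045 to 1218, 1353 and 1637. AC089983.1 fell from 511, 424 and 447 to 342, 347 and 312 inside TXNRD1, the cytosolic thioredoxin reductase, which went from 26050, 25970 and 26630 to 23060, 22310 and 19100 (adjusted p = 0.0129 by limma, 0.0536 without intensity trend and 0.152 with RLE factors). The ratio passed its test in none of these 3 pairs (limma adjusted p = 0.296, 0.182 and 0.222). ZNFX1, the helicase gene across from ZFAS1, was not called (4062, 4038 and 4320 against 2998, 2928 and 4233, adjusted p = 0.0784 by limma), but passed under DESeq2 (0.0365), with the replicate block (0.0164), with adjustment over the listed genes (0.0265) and without sh-METTL3 replicate 3 (3.24e-05).

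Per kilobase of exon, the antisense level was a median 13.9% of the partner's in controls and 22.5% in sh-METTL3, and it exceeded the partner's in 31 of 160 control pairs. Within arrangements the control medians were 7.76% head to head, 9.97% inside the partner and 104% where the partner lay inside, with tail-to-tail pairs in between. The sh-METTL3 medians were 16.1%, 11.8% and 93.3%, and 45.1% tail to tail.

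**Figure D5:**
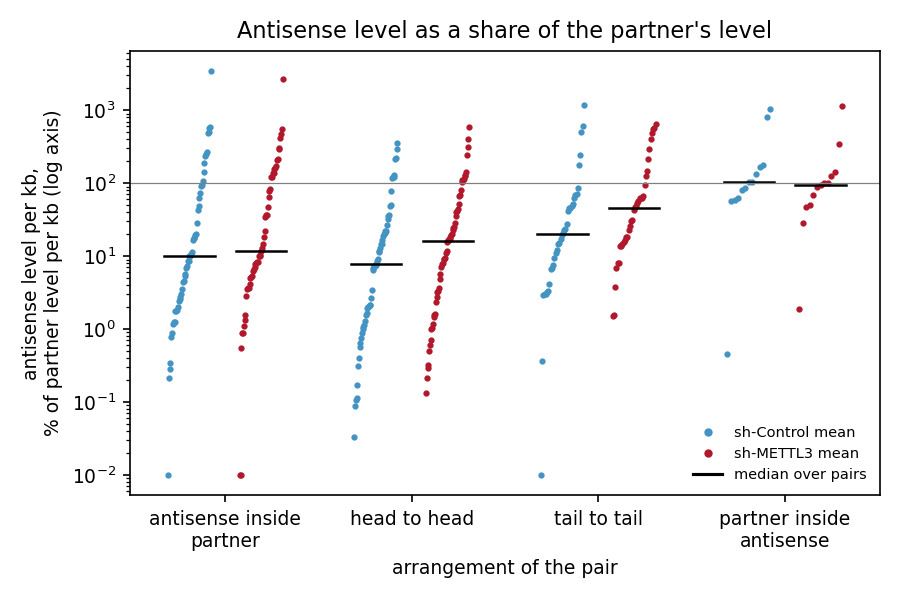
Antisense level per kb as a percentage of the partner's (log axis) in the group means, by arrangement of the pair, with 1 point a pair and a line at the median. Points at the lowest position stand for pairs whose antisense level was 0, and the head-to-head median rises from 7.76% to 16.1%.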

How the data were processed

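Sequencing libraries were made with an Illumina TruSeq kit. The submitters' processing notes name HISAT2 2.0.5 and hg38. The study's methods name Cufflinks with RefSeq transcripts for assembly and differential expression, which does not match the form of the table, size-factor scaled counts of GENCODE genes. How that table was counted, and whether strand was used, was not given in the sources used here. The authors deposited 1 table of 7758 genes past their threshold. Its library columns are a signal, read counts that the authors divided by a size factor; 100% of values gave whole reads (tolerance 0.05 read). The deposited p-value and adjusted p columns were used only to count the 22977 tests, and the authors' fold changes were not used. Positions and exonic lengths matched GENCODE v29. Group effects were fitted with limma 3.58.1 (R 4.3.3) with intensity trend on log2(scaled count + 1), adjusted over 22977 tests, threshold 0.05; pair ratios were fitted over 659 pairs. The script was tested on simulated data. Alternatives used edgeR 4.0.16 and DESeq2 1.42.0. Between replicates, chi-square per degree of freedom was 3.89 to 17.6, so no library was a copy. Members and lists were chosen with earlier results of these data known. Named genes were those of the lists, the 6 largest rises and falls (mean at least 20), the 6 highest per kb, the pairs with the most opposite, largest summed and nearest equal changes (means at least 50) and partners; genes with printed start regions, WNT5A and WNT5A-AS1, LUCAT1, ADGRV1, SLC12A5-AS1, partners matched or missed by list patterns and the 3 uncalled genes were added after values were seen.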

Additional observations from a re-analysis of the deposited data

How the results depend on the processing

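The 73 genes named by rule kept their direction in every alternative run for them, 54 kept their call in each and 17 lost it in at least one; 14 alternatives were run, or 13 for FUT7, GATA2-AS1 and TMC3, whose means were under 20. Of 31 genes named outside the rule, not counting RFX2 and SAP30, 23 kept their call throughout and none turned direction. Antisense genes called were 286, with 212 to 289 called across the alternatives other than the fold limit and removal of a library. Leaving out 1 library gave 240 to 271 called antisense genes (186 to 213 higher, 46 to 58 lower), 138 to 150 called partners (73 to 78 higher, 63 to 72 lower) and 71 to 79 called ratios, and 118 pairs in 1 direction each time. With a minimum mean of 20, 77 pairs moved in 1 direction, since fewer pairs were tested. With a doubling or halving required, 52 partners were called (31 higher, 21 lower), since the limit removes small changes. RLE factors moved the median of all listed genes by 0.12 (log2), and 228 antisense genes were then higher and 53 lower, 81 partners higher and 48 lower (129 called), and of all listed genes 3703 higher and 2871 lower in place of 3614 and 3983; calls lost under RLE among named genes were those of TXNRD1, SBF2, NR2C2, DCPS (adjusted p 0.0636), GSEC (0.14), AC090109.1 (0.0617), LUCAT1, KMT2E, LIF, TIRAP and METTL3. METTL3 itself lost its call in 6 alternatives. The replicate block gave 283 called antisense genes, 281 of them shared with the fit without it, 153 partners and 79 ratios; same-numbered libraries did not deviate together (correlations 0.004, 0.019 and -0.015), and a shared number is taken as a name only. Low counts limit precision: 73 antisense genes had means under 20, and 6 were at 0 in all controls and 6 in all sh-METTL3 libraries.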

Other observations

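The antisense genes on chromosome 11 were 11 higher and 8 lower of 19, where 410 of the 517 listed coding genes of that chromosome were lower. On chromosome 15, 11 of 14 antisense genes were higher and 2 lower, and 194 of 272 coding genes were lower. The 19 antisense genes that also lay over a coding gene on their own strand were split 11 to 8. Among other noncoding classes, 243 of 308 lincRNA genes and 10 of 11 bidirectional promoter lncRNA genes were higher. Of 64 processed transcripts 39 were higher and 25 lower, and of 12 sense-overlapping genes 6 and 5. Of 24 sense-intronic genes 14 were higher and 9 lower, and of 14 snoRNA genes 2 were higher and 12 lower. The 3 antisense genes that limma did not call were PGM5-AS1, AC105020.1 and AL445524.1, with log2 fold changes of 0.67, 0.67 and 0.82. PGM5-AS1 passed under DESeq2 (adjusted p = 0.00886), edgeR (0.0212 with TMM and 0.0128 with RLE factors), the replicate block (0.0487) and without sh-METTL3 replicate 3 (0.000499). AL445524.1 passed under DESeq2 (0.0417), edgeR (0.0345 and 0.0247) and without sh-METTL3 replicate 1 (0.00693), and AC105020.1 under DESeq2 (0.0258), edgeR (0.0454 and 0.0314), the replicate block (0.0289) and without sh-METTL3 replicate 1 (0.0159). All 3 also passed with adjustment over the listed genes alone.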
